A study of Mus musculus with 32 samples.

Results

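The mouse mitochondrial genome carries 37 genes, and all of them are listed among the 54532 genes of the deposited expression table. They were chosen by their chromosome alone, without use of any measured value. They comprise 13 genes for mRNAs, 2 for ribosomal RNAs (rRNAs) and 22 for transfer RNAs (tRNAs). The mRNAs encode subunits of the respiratory chain: the mt-Nd genes for complex I (NADH dehydrogenase), mt-Cytb for complex III, mt-Co1 to mt-Co3 for complex IV (cytochrome c oxidase), and mt-Atp6 and mt-Atp8 for the ATP synthase, complex V. The same complexes hold many subunits encoded in the nucleus, of which 74 were followed here beside the mitochondrial genes.

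Mitochondrial DNA (mtDNA) is a small circle copied many times in each cell. A polymerase of its own, Polrmt, reads both of its strands as long transcripts, from which the tRNAs are cut out so that the rRNAs and mRNAs between them come free. Nearly all mRNAs come from the strand with the plus sign in the annotation, and mt-Nd6 is the mRNA from the other strand. Brown fat burns fuel for heat and is packed with mitochondria, whereas white fat cells, filled with stored lipid, hold few.

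The libraries come from C57/Bl6j wild-type mice that ate a 60% fat diet for 12 weeks. Mice of the auranofin groups then received auranofin, a gold compound known as an inhibitor of thioredoxin reductase, at 1 mg/kg body weight 3 times a week for 4 weeks. Mice of the vehicle groups received vehicle on the same schedule, on the same diet. Each treatment has 4 libraries from each of 4 tissues: brown adipose tissue (BAT), liver, inguinal white adipose tissue (iWAT) and epididymal white adipose tissue (eWAT), 32 in all. The labels do not say whether each library is a separate animal, and p-values measure only the spread between these libraries. They come from bulk tissue, in which fewer cells of a type and less RNA per cell cannot be told apart.

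Reads in genes numbered 13606756 to 19205640 per library. Tissue identity was as labelled: Ucp1, the uncoupling protein of brown fat, averaged 3129 ± 786 FPKM in auranofin BAT and 2506 ± 552 FPKM in vehicle BAT (SD, n = 4 each) and stayed under 1 FPKM elsewhere, and Alb, the serum albumin of hepatocytes, averaged 49197 ± 7019 FPKM in auranofin liver and 45656 ± 7248 FPKM in vehicle liver (SD, n = 4 each). FPKM are read counts per gene divided by gene length and by a library size set by the authors. Some libraries stood apart. Skeletal muscle genes (Acta1, Ckm and 6 more) had a mean log2(FPKM + 1) of 6.21 in auranofin replicate 4 and 6.84 in vehicle replicate 4 of iWAT, against at most 1.46 in its other libraries. In BAT their mean was 7.88 and 6.47 in auranofin replicates 2 and 4, and 4.49 and 5.89 in vehicle replicates 3 and 4. Summed hepatocyte markers were 53.2, 481, 167 and 4.41 FPKM in auranofin eWAT and 34.5, 14.2, 16.4 and 3.56 FPKM in vehicle eWAT. In iWAT they were 359 FPKM in vehicle replicate 1, against at most 36.2 FPKM in its other libraries. Auranofin replicate 2 of iWAT and vehicle replicate 2 of eWAT stood apart in the mitochondrial genes themselves.

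A long stretch of mtDNA has a copy on nuclear chromosome 1, which bears on how reads of some members can be counted. Annotated pseudogenes at chr1:24611535-24616197 (GRCm38, minus strand) copy mitochondrial positions 6394 to 11042. Of the 13 mRNA genes, mt-Co2, mt-Atp8, mt-Atp6, mt-Co3, mt-Nd3 and mt-Nd4l lie inside this stretch, mt-Co1 and mt-Nd4 lie partly inside it, and mt-Nd1, mt-Nd2, mt-Nd5, mt-Nd6 and mt-Cytb lie outside it, as do both rRNA genes. The sequences shown, from the GENCODE M21 transcripts on GRCm38, compare mitochondrial genes with their copies where they differ or where they do not. Capitals mark bases that differ within a pair. The mt-Co1 window (mitochondrial positions 6381 to 6412) spans the start of the copied stretch, the mt-Co2 window (7013 to 7042) is the start of its coding sequence, and the mt-Nd3 window (9459 to 9490) holds the single base that differs from its copy.
mt-Co1: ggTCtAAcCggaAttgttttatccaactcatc
Gm29216: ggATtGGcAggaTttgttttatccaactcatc
mt-Co2: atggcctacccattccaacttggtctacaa
Gm28661: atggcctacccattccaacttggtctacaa
mt-Nd3: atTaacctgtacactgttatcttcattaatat
Gm28438: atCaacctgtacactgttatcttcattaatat

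Over their whole aligned lengths, Gm28661 matched mt-Co2 in all 681 bases, Gm10925 matched mt-Atp6 in all 678, Gm28437 matched mt-Co3 in all 783, Gm10222 matched mt-Nd4l in all 294 and Gm28439 matched mt-Nd4 in all 876. Gm28438 differed from mt-Nd3 at 1 of 345 bases, and Gm29216 differed from mt-Co1 at 6 of 492 bases, all of them in the window shown. Of mt-Atp8, an annotated nuclear transcript covers only the last 43 bases, which overlap mt-Atp6 and are part of Gm10925. The rest of its copy was not compared by sequence. In mt-Co2, 99.4% of windows of 150 bases occur in a nuclear transcript. In mt-Cytb 0% do. Further pseudogenes on chromosome 2 share sequence with mitochondrial genes and took reads: Gm13340 with mt-Co1 (20364 reads in all libraries), Gm13341 with mt-Co2 (8128) and Gm13339 with mt-Nd2 (1827). In mt-Nd2, which lies outside the chromosome 1 stretch, 3.19% of windows of 100 bases and 0% of those of 150 bases occur in a nuclear transcript. A read from a window shared with a nuclear transcript cannot be placed in one of them by its sequence. Inside and outside refer here to the chromosome 1 stretch alone.

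The 6 mRNAs inside the stretch together took 0.639% of the reads on mitochondrial mRNAs, and mt-Co2 read far below mt-Co1, although both encode core subunits of the same enzyme. In auranofin BAT mt-Co1 averaged 46808 ± 6043 FPKM and mt-Co2 664 ± 126 FPKM (SD, n = 4). In vehicle liver mt-Co1 averaged 15665 ± 402 FPKM and mt-Co2 114 ± 13.9 FPKM (SD, n = 4). The copies on chromosome 1 summed to levels of the same order as the 6 genes themselves, for example 1064 to 1187 FPKM in the 4 vehicle libraries of iWAT, where the 6 genes summed to 591 to 1064 FPKM. These sums cover unlike genes: that of the copies includes the copies of parts of mt-Co1 and mt-Nd4. Of mt-Atp8 it includes only the 43 bases shared with mt-Atp6. How the authors treated reads that match both places is not given in the sources used here, and the 6 genes are set apart from the 5 outside in what follows.

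BAT gave the most mitochondrial reads. All 37 genes together took 23.0, 17.6, 22.6 and 17.4% of reads in genes in auranofin BAT and 17.2, 16.7, 17.5 and 23.0% in vehicle BAT. In liver the share was 4.48, 4.34, 4.53 and 4.46% with auranofin and 4.50, 4.89, 4.25 and 4.46% with vehicle. In iWAT it was 4.28, 6.20, 5.33 and 5.23% with auranofin and 6.36, 6.90, 7.11 and 6.15% with vehicle. In eWAT it was 4.39, 4.13, 2.86 and 3.61% with auranofin and 3.50, 8.11, 3.52 and 3.72% with vehicle. Every BAT library lay above every library of the other tissues. Auranofin and vehicle libraries overlapped in each tissue, in iWAT by 1 library of each treatment. Reads on mRNAs made up 95.9% of all mitochondrial reads.

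**Figure D1:**
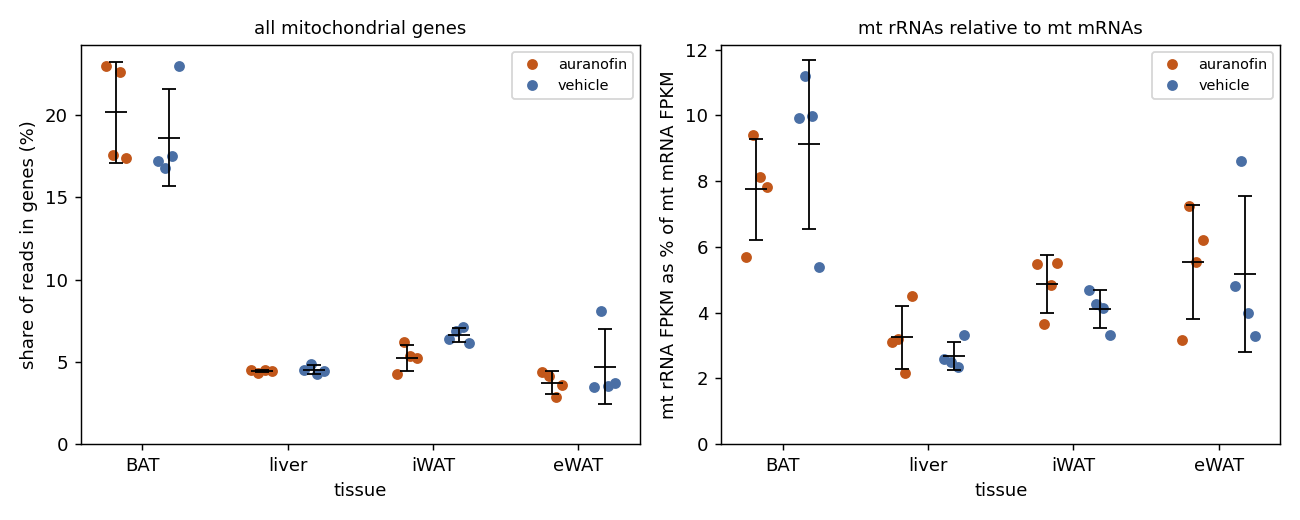
Left, share of reads in genes that fell on the 37 mitochondrial genes, in percent. Right, summed FPKM of the 2 mitochondrial rRNAs as a percentage of that of the 5 mitochondrial mRNAs outside the copied stretch. Each point is a library, bars are the mean ± SD of 4 libraries, auranofin is left of vehicle in each tissue. BAT libraries lie between 16.7 and 23.0% on the left, all above the highest other library, vehicle replicate 2 of eWAT at 8.11%.

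The members differed widely in level, and mt-Co1 and mt-Cytb read highest in each tissue. mt-Cytb, the catalytic core of complex III (mitochondrial positions 14145 to 15288, plus strand), had 50409, 34600.5, 50659 and 35566 FPKM in auranofin BAT and 35407, 30379.8, 36584 and 47281 FPKM in vehicle BAT. In liver it had 10194, 9894, 12853 and 10324 FPKM with auranofin and 11319, 11150.2, 10266 and 11172 FPKM with vehicle. The liver libraries lay close together, and all of them lay well below BAT. In iWAT mt-Cytb had 5669.7, 9996, 7299.8 and 6429.7 FPKM with auranofin and 10050.0, 10654, 12136 and 9255 FPKM with vehicle. In eWAT it had 6195, 5239, 3350.4 and 4521 FPKM with auranofin and 3951, 6919, 4105 and 4665 FPKM with vehicle. The iWAT libraries of vehicle mice lay in and around the range of liver, and eWAT had the lowest mean in both treatments.

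Among the complex I genes outside the copied stretch, mt-Nd1 averaged 24131 ± 7145 FPKM in auranofin BAT and 19800.3 ± 2514 FPKM in vehicle BAT (SD, n = 4 each), and mt-Nd2 averaged 22298 ± 6622 and 18738 ± 2851 FPKM there. mt-Nd5 was the lowest of the 5, with 6516 ± 1503 FPKM in auranofin BAT and 5972 ± 1360.3 FPKM in vehicle BAT. mt-Nd6 (mitochondrial positions 13552 to 14070, minus strand) overlaps mt-Nd5 on the opposite strand by 14 bases, and the kit keeps no strand, so reads in the overlap cannot be told apart. Over the rest of mt-Nd6, its reads cannot be told from those of any RNA of the plus strand. mt-Nd6 had 10372, 9042, 11964 and 6660.2 FPKM in auranofin BAT and 6769, 7575, 6826 and 10366 FPKM in vehicle BAT. In liver mt-Nd6 had 1746, 2719.7, 2949 and 1646 FPKM with auranofin and 1859, 2627, 2107 and 2151 FPKM with vehicle. In iWAT mt-Nd6 had 2072, 3926, 2316 and 2331 FPKM with auranofin and 5445, 4756, 3791 and 3709.7 FPKM with vehicle. Unlike mt-Cytb, it read higher in vehicle iWAT than in vehicle liver in every library. Of the summed FPKM of the 5 mRNAs outside the stretch, mt-Nd6 made up 7.95% in auranofin liver and 7.66% in vehicle liver, against 12.9% in auranofin iWAT and 14.5% in vehicle iWAT.

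**Figure D2:**
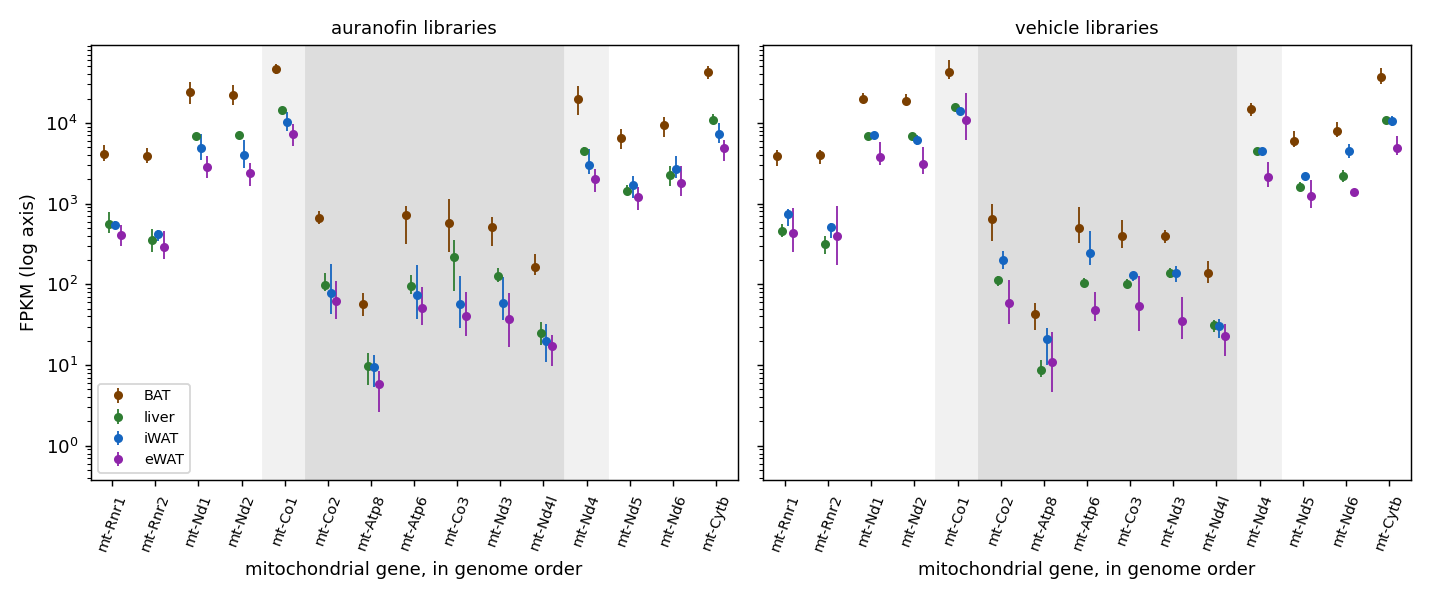
Mean FPKM (log axis) of the 2 rRNAs and 13 mRNAs in genome order, by tissue, with bars from the lowest to the highest of 4 libraries; auranofin libraries left, vehicle libraries right. Dark shading marks the 6 genes inside the stretch copied to chromosome 1, light shading the 2 partly inside. The means of the 6 genes lie at 727 FPKM (mt-Atp6 in auranofin BAT) or below, while mt-Cytb lies at 30379.8 FPKM or more in every BAT library.

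BAT stood above the other tissues for most mitochondrial genes with a mean level high enough to be tested. Between vehicle libraries, 25 of 33 mitochondrial genes were higher in BAT than in iWAT: 12 of 13 mRNAs, both rRNAs and 11 of 18 tRNAs. The median difference of the mRNAs was 1.53 on the log2 scale. Of all 14339 genes tested, 24.4% were higher in BAT, and their median difference was -0.02. mt-Atp8 was the mRNA that did not pass (1.00 ± 0.43 SE on the log2 scale, adjusted p = 0.0682). Against eWAT, 31 of 33 were higher in BAT (13 mRNAs, 2 rRNAs and 16 tRNAs; median of mRNAs 2.68), beside 25.3% of all genes. Against liver, 24 of 33 were higher in BAT (13 mRNAs, 2 rRNAs and 9 tRNAs; median of mRNAs 1.84), beside 31.8% of all genes. No mitochondrial gene was called lower in BAT than in another tissue. Differences, here and below, are of log2(FPKM + 1), tested with limma on all genes with a mean of 0.5 FPKM or more, and called at a Benjamini-Hochberg adjusted p under 0.05.

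Among the mRNAs the size of the BAT difference varied with the gene. mt-Cytb was higher in vehicle BAT than in vehicle iWAT by 1.82 ± 0.20 (SE, adjusted p = 2.13e-06), and mt-Nd6 by 0.83 ± 0.18 (adjusted p = 0.00114), the smallest difference of the 13. Both calls were lost with quantile normalization, where mt-Cytb differed by 0 and mt-Nd6 by 0.22 (adjusted p = 0.368). That method gives genes of equal rank the same value in every library, so it cannot show a difference where the rank is unchanged. Both calls were also lost without the filter on low values, at an adjusted p of 0.149 for mt-Cytb and 0.114 for mt-Nd6. Under the other alternatives both stayed called, with an adjusted p of 3.9e-08 to 0.00013 for mt-Cytb and 0.000394 to 0.0474 for mt-Nd6. The mt-Atp6 call against iWAT was lost without the filter (adjusted p = 0.0573). It was also lost on a TPM scale, where FPKM sum to the same total in each library (0.124). Leaving out vehicle replicate 2, 3 or 4 of iWAT or 1 of BAT lost it too (0.0697 to 0.0992). mt-Atp8 gained a call with sample quality weights (0.0235) and with voom on rebuilt reads (0.0312). Against liver mt-Cytb differed by 1.75 ± 0.20 (adjusted p = 1.04e-06) and mt-Nd6 by 1.84 ± 0.18 (adjusted p = 1.57e-07), and without the filter the adjusted p of mt-Cytb was 0.137, against 8.8e-05 or less under its other alternatives. Against eWAT the range ran from 2.15 for mt-Atp8 to 3.63 for mt-Nd3, both inside the copied stretch. In the auranofin libraries, 33 of 33 mitochondrial genes were higher in BAT than in iWAT (median of mRNAs 2.55; 22.6% of all genes), 33 of 33 than in eWAT (3.20; 24.9%), and 31 of 33 than in liver (2.06; 31.6%). mt-Th and mt-Tl2 were the tRNAs that did not pass against liver. Of the 33, mt-Tt had 2, 2, 4 and 1 reads in auranofin BAT, and 0, 2, 1 and 0 in auranofin iWAT. In auranofin eWAT it had 0, 1, 0 and 0. Its mean passed the filter mainly through the BAT libraries, so its calls as higher in BAT are partly set by the filter.

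The 2 rRNAs, which form the core of the mitochondrial ribosome, stood above the median mRNA in each BAT difference. mt-Rnr2, the large-subunit rRNA (mitochondrial positions 1094 to 2675), had 3261, 4322, 4879.8 and 3164 FPKM in auranofin BAT and 4248, 4571, 4015 and 3071 FPKM in vehicle BAT. In liver it had 344, 354, 252 and 484 FPKM with auranofin and 279, 335, 239 and 398 FPKM with vehicle. The BAT libraries lay several times above all liver libraries. Between vehicle libraries mt-Rnr2 was higher in BAT than in liver by 3.67 ± 0.39 (SE, adjusted p = 5.44e-07), and mt-Rnr1, the small-subunit rRNA, by 3.10 ± 0.32 (adjusted p = 4.12e-07). Against iWAT the differences were 2.95 for mt-Rnr2 and 2.41 for mt-Rnr1. The rRNAs together stood at 7.75 ± 1.54% of the summed FPKM of the 5 mRNAs outside the copied stretch in auranofin BAT. In vehicle BAT they stood at 9.11 ± 2.56%, against 3.25 ± 0.964% in auranofin liver and 2.69 ± 0.430% in vehicle liver (SD, n = 4 each). In iWAT they stood at 4.87 ± 0.872% with auranofin and 4.10 ± 0.575% with vehicle, and in eWAT at 5.54 ± 1.72% and 5.18 ± 2.37%. These ratios have no test. Mitochondrial rRNA is known to outnumber the mRNAs in cells, and how the libraries were cleared of rRNA is not given in the sources used here. Cytosolic rRNA took 0.0880 to 0.210% of reads in BAT and 0.0543 to 0.184% in liver, and these ranges overlap.

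**Figure D3:**
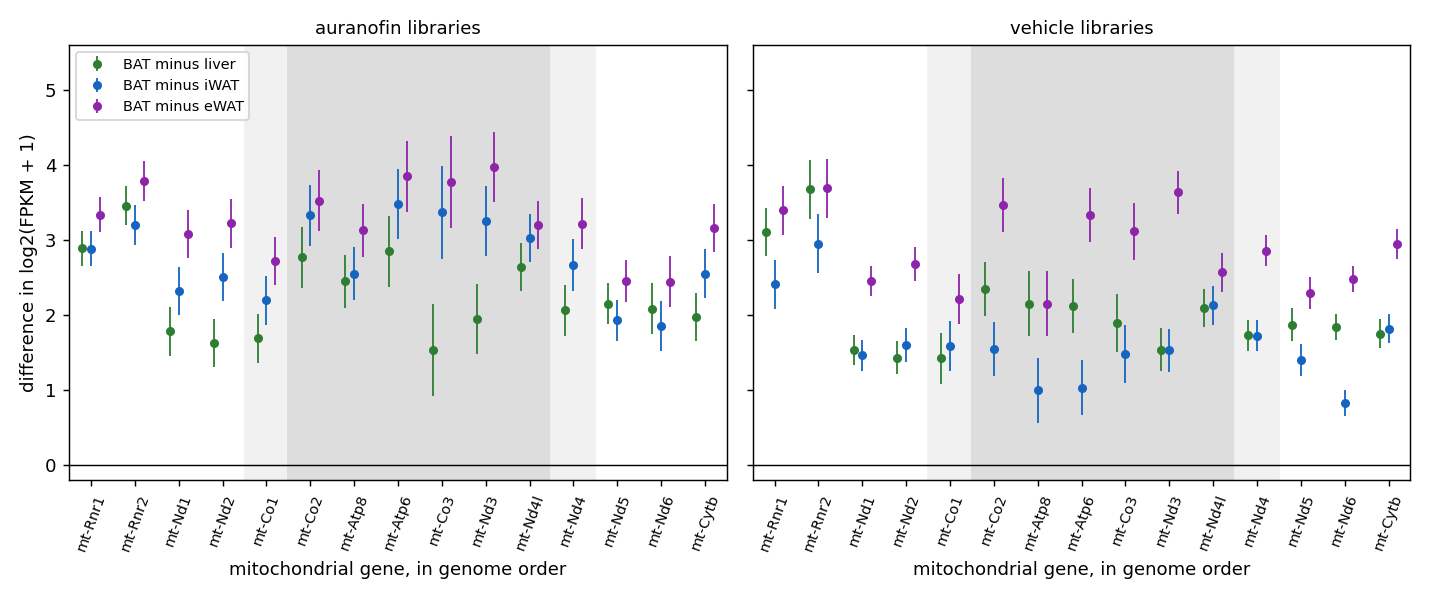
Difference in log2(FPKM + 1), BAT minus liver, BAT minus iWAT and BAT minus eWAT, for the rRNAs and mRNAs in genome order (points, bars ± SE; shading as for the copied stretch); auranofin libraries left, vehicle libraries right. All points lie above 0, and among vehicle libraries mt-Rnr2 reaches 3.67 against liver.

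The tRNA genes took 171864 reads in all libraries together, and they were far from even. A single gene, mt-Tp for the proline tRNA, took 67.3% of these reads. It and mt-Tn (asparagine), mt-Tc (cysteine) and mt-Tl2 (a leucine tRNA) took 91.2%. The 8 tRNA genes on the minus strand took 93.4%, though without strand these reads cannot be told from those of RNA of the plus strand. At the other end, mt-Td had no read and 7 tRNA genes had under 100 reads. Whether reads on so short a gene come from the free tRNA or from a longer RNA that holds it was not tested. The sequences of the 4 with most reads, as read 5′ to 3′ in RNA sense from GENCODE M21 on GRCm38, are shown to place these reads. mt-Tp lies at mitochondrial positions 15356 to 15422, mt-Tn at 5089 to 5159 and mt-Tc at 5192 to 5257, all on the minus strand, and mt-Tl2 at 11671 to 11741 on the plus strand.
mt-Tp: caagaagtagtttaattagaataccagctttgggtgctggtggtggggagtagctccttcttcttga
mt-Tn: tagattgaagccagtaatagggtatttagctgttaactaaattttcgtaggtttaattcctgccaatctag
mt-Tc: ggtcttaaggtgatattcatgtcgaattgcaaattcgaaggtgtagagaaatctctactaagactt
mt-Tl2: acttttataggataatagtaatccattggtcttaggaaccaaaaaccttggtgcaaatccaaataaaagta

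mt-Tp had 11016, 8411, 16431 and 5583 FPKM in auranofin BAT and 6426, 7806, 8474 and 11112 FPKM in vehicle BAT. In iWAT it had 1408, 1785, 1437 and 1744 FPKM with auranofin and 3033, 2765, 3047 and 1593 FPKM with vehicle. BAT lay above iWAT in every library, and between vehicle libraries by 1.71 ± 0.26 (SE, adjusted p = 5.7e-05). mt-Tn showed the largest gap between vehicle BAT and vehicle liver among the tRNAs: 1509.8 ± 838 FPKM in auranofin BAT against 87.2 ± 27.6 FPKM in auranofin liver, and 1589 ± 536 FPKM in vehicle BAT against 99.0 ± 35.3 FPKM in vehicle liver (SD, n = 4 each). Its vehicle difference was 4.00 ± 0.30 (SE, adjusted p = 8.57e-09). For mt-Tl2 the same difference was 0.56 ± 0.45 (adjusted p = 0.293), and its means were 390.1 ± 110.4 FPKM in auranofin BAT and 135 ± 105 FPKM in auranofin liver, and 229 ± 41.2 FPKM in vehicle BAT and 159.8 ± 57.2 FPKM in vehicle liver. mt-Tn passed the test between BAT and liver by a wide margin and mt-Tl2 did not, though the difference between these 2 genes has no test.

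eWAT read lower than iWAT in vehicle mice. Of 33 mitochondrial genes 22 were lower in eWAT (11 mRNAs, mt-Rnr1 and 10 tRNAs; median of mRNAs -1.13), where 24.8% of all genes were lower. mt-Nd6 had 1343, 1529.9, 1333 and 1363 FPKM in vehicle eWAT, all below the 4 vehicle iWAT libraries, and differed by -1.65 ± 0.18 (SE, adjusted p = 6.44e-06). mt-Cytb differed by -1.13 ± 0.20 (adjusted p = 0.000325). mt-Co1 (-0.63 ± 0.34, adjusted p = 0.142) and mt-Nd4l (-0.44 ± 0.26, adjusted p = 0.177) were the mRNAs that did not pass. Vehicle replicate 2 of eWAT had 23265 FPKM of mt-Co1, against 6202 to 7199.6 FPKM in the other 3. Without it, limma called mt-Co1 (-1.08, adjusted p = 0.000436) and mt-Rnr2 (-1.29, adjusted p = 0.000216). mt-Rnr1 lost its call on the TPM, quantile and nuclear-read scales (adjusted p of 0.0698 to 0.152), as did mt-Atp8 (0.0830 to 0.140). Which genes passed thus varied with vehicle replicate 2 and with the scale. In the auranofin libraries no mitochondrial gene passed for eWAT against iWAT (median of mRNAs -0.55; 5 of 33 had an unadjusted p under 0.05 with limma, and voom on rebuilt reads also called 0), and 3.8% of all genes were lower in eWAT. mt-Cytb then differed by -0.61 ± 0.32 (adjusted p = 0.268).

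Where liver stood among the tissues depended on the scaling of the libraries. With the values as deposited, 21 of 33 mitochondrial genes were higher in vehicle liver than in vehicle eWAT (10 mRNAs and 11 tRNAs; median of mRNAs 1.11; 37.4% of all genes), and 17 of 33 in the auranofin libraries (7 mRNAs and 10 tRNAs; 1.03; 35.6%). Against iWAT, vehicle liver had 2 tRNAs higher, mt-Te by 1.93 and mt-Tm by 2.02, beside 35.8% of all genes. The mt-Tm value rests on few reads, 9, 9, 7 and 12 in vehicle liver and 4, 2, 4 and 1 in vehicle iWAT. Vehicle liver had 5 genes lower, beside 33.7% of all genes. They were mt-Nd6 by -1.01, mt-Atp6 by -1.09, mt-Atp8 by -1.15, mt-Tn by -2.27 and mt-Tc by -1.63. In the auranofin libraries 11 were higher in liver than in iWAT (3 mRNAs and 8 tRNAs; 35.4% of all genes) and 1, mt-Tn, was lower (32.5%). These calls turned with the scale: on a TPM scale, where FPKM sum to the same total in each library, 0 were higher and 12 lower, on the nuclear-read scale 0 and 6, and with quantile normalization 3 and 12. The median of the mRNAs was 0.56 as deposited and -0.49 on the TPM scale, where that of all genes was -0.82. On the TPM scale the median of all genes moved to -0.98 for vehicle liver against eWAT and to -0.62 against iWAT, and the median of the mRNAs to -0.08 and -0.84. Relative to the median of all genes, the mRNAs then lay above it against eWAT and below it against iWAT. With quantile normalization they lay below it against eWAT as well, at -0.75 beside -0.04 for all genes. On the TPM scale 5 mitochondrial genes were called higher and 8 lower in vehicle liver than in eWAT (9 and 11 with quantile normalization), and 2 higher and 20 lower than in iWAT. The medians of the mRNAs in the BAT differences stayed above 0 on the TPM, quantile and nuclear-read scales. With quantile normalization mt-Nd1, mt-Co1 and mt-Cytb differed by 0 between vehicle BAT and vehicle iWAT, since genes of unchanged rank cannot differ under that scaling. On the TPM scale the BAT medians of mRNAs were 1.16 against iWAT, 1.86 against eWAT and 2.23 against liver in vehicle libraries, with medians of all genes at -0.32, -0.69 and 0.32.

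Most nuclear genes of the same complexes were also highest in BAT and lower in eWAT than in iWAT. Between vehicle libraries 64 of 74 nuclear subunits were higher and 3 lower in BAT than in iWAT (median 1.32), 69 higher and 1 lower than in eWAT (2.54), and 63 higher and 3 lower than in liver (1.26). The shares of all genes higher in BAT were 24.4%, 25.3% and 31.8% in these comparisons. In eWAT 69 of 74 were lower than in iWAT (median -1.20), beside 24.8% of all genes. Ndufs1, a complex I subunit that carries iron-sulphur clusters, averaged 89.0 ± 6.65 FPKM in vehicle BAT, against 17.95 ± 1.67 FPKM in vehicle iWAT (SD, n = 4 each). Its difference was 2.25 ± 0.10 (SE, adjusted p = 1.94e-10). Cox7a1, the heart and brown fat form of a complex IV subunit, averaged 1118 ± 335 FPKM in vehicle BAT, against 6.17 ± 1.52 FPKM in vehicle liver. In liver against eWAT 69 nuclear subunits were higher and 2 lower (median 1.26), beside 37.4% of all genes higher. Against iWAT 15 were higher and 15 lower (median 0.19), beside 35.8% of all genes higher and 33.7% lower.

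Genes that read, process and translate mtDNA transcripts had smaller median differences between BAT and the other tissues than the transcripts themselves, with no test of that contrast. Of 47 genes for mtDNA transcription and RNA processing, 27 were higher and 1 lower in vehicle BAT than in vehicle iWAT (median 0.48), 37 and 0 than in eWAT (0.69), and 16 and 4 than in liver (0.20). Of all genes 24.4% were higher in BAT than in iWAT, 25.3% than in eWAT and 31.8% than in liver, so the count of 16 against liver is near the background. Of 32 genes for mitochondrial translation, 24 were higher in BAT than in iWAT, 29 than in eWAT, and 14 than in liver, where 5 were lower. Polrmt, the mitochondrial RNA polymerase, averaged 10.5 FPKM in auranofin BAT and 9.06 FPKM in vehicle BAT, and 9.27 FPKM in auranofin liver and 8.40 FPKM in vehicle liver. Its difference between vehicle BAT and liver was 0.10 ± 0.17 (SE, adjusted p = 0.638). Tfam, which packs mtDNA and starts its transcription, was lower in vehicle BAT than in vehicle liver by -0.64 ± 0.08 (adjusted p = 5.68e-06), the opposite direction to the mitochondrial mRNAs, and higher than in iWAT by 0.48 ± 0.08 (adjusted p = 0.000227). Lrpprc, which stabilises mitochondrial mRNAs, was higher in BAT than in iWAT by 1.41 ± 0.13 (adjusted p = 4.76e-07), and differed from liver by 0.10 ± 0.13 (adjusted p = 0.544). Ppargc1a, a coactivator that drives mitochondrial biogenesis, was higher in vehicle BAT than in each other tissue, by 2.20 against iWAT, most against eWAT and by 1.33 against liver. Tfam averaged 9.52 FPKM in auranofin BAT and 8.77 FPKM in vehicle BAT, and 14.4 FPKM in auranofin liver and 14.2 FPKM in vehicle liver.

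With auranofin, no mitochondrial gene passed the test in any tissue. In iWAT the values nonetheless lay to one side: 31 of the 32 mitochondrial genes tested, and 13 of 13 mRNAs, had a difference below 0 (12 of 13 mRNAs with quantile normalization). The median of the mRNAs was -0.69, beside -0.02 for all 13164 genes tested. On the TPM scale these medians were -0.42 and 0.23. The smallest adjusted p was 0.204. limma called 0% of all genes in iWAT, with 2895 genes and 18 mitochondrial genes at an unadjusted p under 0.05, and voom on rebuilt reads called 0. Members share their transcripts and libraries, so a shared sign over 13 mRNAs is not 13 observations.

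Among the genes outside the copied stretch in iWAT, mt-Nd6 showed the largest difference, -0.76 ± 0.27 (SE), followed by mt-Nd2 at -0.69 ± 0.29, mt-Nd1 at -0.61 ± 0.27, mt-Cytb at -0.54 ± 0.26 and mt-Nd5 at -0.40 ± 0.23. With quantile normalization the mt-Nd5 difference was 0.12. mt-Co1 and mt-Nd4, partly inside, differed by -0.46 ± 0.26 and -0.62 ± 0.27. The 6 genes inside had a median of -1.43. Of these, mt-Co2 had 46.9, 178, 42.8 and 47.9 FPKM in auranofin iWAT and 257, 192, 201 and 154 FPKM in vehicle iWAT, a difference of -1.60 ± 0.43. mt-Atp6, a core subunit of the proton channel of ATP synthase, differed by -1.90 ± 0.51, mt-Co3 by -1.44 ± 0.40, mt-Nd3 by -1.42 ± 0.38, mt-Atp8 by -1.13 ± 0.38 and mt-Nd4l by -0.68 ± 0.29. When the reads of each gene and its nuclear copy were added, except for mt-Atp8, the median of the 6 was -1.47. The chromosome 1 copies, those of mt-Co1 and mt-Nd4 included, summed to 237, 1018, 275 and 298 FPKM in auranofin iWAT and 1064, 1187, 1169 and 1119.6 FPKM in vehicle iWAT.

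Auranofin replicate 2 of iWAT lay within the range of the vehicle libraries for mt-Cytb, mt-Nd6 and mt-Co2, well above the other 3 auranofin libraries. mt-Tn shows the same: 169.8, 395, 168 and 236 FPKM in auranofin iWAT and 496, 457, 510.3 and 381 FPKM in vehicle iWAT. Without that library, 25 mitochondrial genes were called lower with auranofin, all 13 mRNAs and 12 tRNAs, beside 21.3% of all genes. The median of the mRNAs was then -0.94. Some of the 12 tRNAs had few reads, which makes their differences imprecise. mt-Ti had 0, 2 and 0 reads in auranofin replicates 1, 3 and 4, against 5, 3, 4 and 4 with vehicle. In the same libraries mt-Tm had 1, 0 and 1 against 4, 2, 4 and 1. mt-Ts1 had 1, 2 and 0 against 5, 4, 2 and 5. mt-Cytb differed by -0.70 ± 0.14 (SE, adjusted p = 0.00725), mt-Nd6 by -0.97 ± 0.16 (adjusted p = 0.00329), mt-Co2 by -2.09 ± 0.16 (adjusted p = 0.000633) and mt-Tn by -1.27 ± 0.16 (adjusted p = 0.00144). The rRNAs did not pass: mt-Rnr1 differed by -0.49 ± 0.17 (adjusted p = 0.0583) and mt-Rnr2 by -0.34 ± 0.18 (adjusted p = 0.171). Each library was left out in turn, this one is singled out because its values stand apart, and the labels give no ground for leaving it out. Leaving out any other single iWAT library left 0 called. So did leaving out replicate 4 of both treatments, in which muscle genes were high, with a median of -0.74. Weighting all 8 libraries by their estimated quality called 28, but also called 2631 higher and 3464 lower of all 13164 genes tested.

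**Figure D4:**
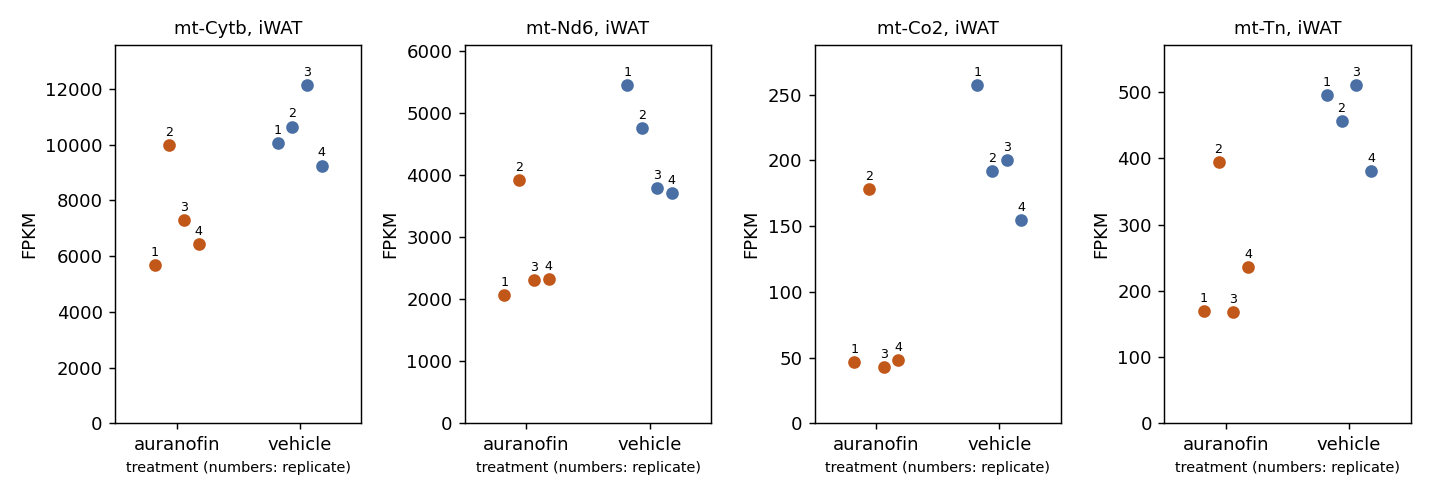
FPKM of mt-Cytb, mt-Nd6, mt-Co2 and mt-Tn in each iWAT library, auranofin left and vehicle right, with the replicate number above each point. Auranofin replicate 2 lies within the range of the vehicle libraries in all 4 panels, for mt-Co2 at 178 FPKM where the other 3 auranofin libraries lie between 42.8 and 47.9.

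Other measures moved with the mitochondrial genes across the iWAT libraries. The mean log2(FPKM + 1) of the 74 nuclear subunits was 5.74, 6.74, 5.42 and 5.43 in auranofin iWAT and 6.68, 6.46, 6.43 and 6.65 in vehicle iWAT, so replicate 2 stood apart there as well. Auranofin against vehicle, 74 of 74 nuclear subunits had a difference below 0 (median -0.73), and none passed. Summed FPKM of white adipocyte markers (Adipoq, Lep and 3 more) were 5517, 9198, 5182 and 5328 with auranofin and 7857, 7673, 7618 and 8235 with vehicle. Those of brown adipocyte markers were 62.8, 160.3, 37.0 and 29.3 with auranofin and 196, 124, 138 and 152 with vehicle, with Ucp1 under 1 FPKM throughout; Cox8b and Cox7a1 of that list are also among the nuclear subunits. Cytosolic rRNA took 0.247, 0.0847, 0.240 and 0.229% of reads with auranofin and 0.0684, 0.0776, 0.121 and 0.0765% with vehicle. Differences in iWAT also varied with gene length over all genes. After that trend was taken off, the 5 genes outside the copied stretch kept -0.14 to -0.27, mt-Co2 kept -1.06 and mt-Atp6 -1.36, and mt-Nd4l stood at 0.10. The part of adipocyte content, cytosolic rRNA and gene length in the result was not tested.

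In eWAT the mitochondrial mRNAs had a median difference of -0.04 with auranofin, with 10 of 13 below 0. Differences in eWAT also varied with gene length over all genes, by a trend of 0.15 at mt-Nd5 to 0.41 at mt-Atp8. With that trend taken off, all 13 lay below 0, from -0.06 for mt-Nd6 to -0.96 for mt-Atp8. The 5 genes outside the copied stretch then stood at -0.06 to -0.65, and in iWAT at -0.14 to -0.27. mt-Atp6 then stood at -0.29, and in iWAT at -1.36. limma called 0% of 13847 genes (1585 at an unadjusted p under 0.05, 2 of them mitochondrial), and voom called 0. mt-Cytb differed by -0.02 ± 0.33 (SE, adjusted p = 0.975), and mt-Nd6 by 0.30 ± 0.31 (adjusted p = 0.635), which was -0.03 with quantile normalization. The sign of the median turned with single libraries: it was 0.19 without vehicle replicate 2, which held 8.11% mitochondrial reads, and -0.48 without auranofin replicate 1. The 74 nuclear subunits had a median of 0.42 in eWAT, and none passed. Summed macrophage markers (Adgre1, Cd68, Csf1r and Lyz2) were 1545, 577, 1136 and 1534 FPKM with auranofin and 2968, 2821, 1192 and 1219 FPKM with vehicle. The part of these markers and of gene length in these values was not tested.

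In liver the mRNAs had a median of -0.03, with 8 of 13 below 0, and 0% of 13122 genes were called by limma (793 at an unadjusted p under 0.05, 2 of them mitochondrial) and 0 by voom. For mt-Cytb the difference was -0.03 ± 0.12 (SE, adjusted p = 0.979). mt-Co3, a complex IV subunit inside the copied stretch, departed from the rest: it had 354, 83.6, 357 and 83.4 FPKM with auranofin and 115, 90.9, 92.5 and 99.7 FPKM with vehicle, a difference of 0.79 ± 0.50 (adjusted p = 0.822). The 2 high libraries lay above all vehicle libraries and the other 2 below them. The mitochondrial share of reads in liver averaged 4.45 ± 0.0843% with auranofin and 4.52 ± 0.267% with vehicle (SD, n = 4 each).

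In BAT all 13 mRNAs lay above 0 with auranofin (12 on the TPM scale, 10 with quantile normalization), from 0.12 for mt-Nd5 to 0.54 for mt-Atp6, with a median of 0.25, and none passed. With the gene-length trend of BAT taken off, the 5 genes outside the copied stretch kept 0.03 to 0.09. mt-Co2 then stood at -0.01 and mt-Nd4l at -0.04, while mt-Atp6 kept 0.35. limma called 3 of 13067 genes in BAT, 0.023%, none of them mitochondrial, and voom 4. The rRNAs stood at 0.05 ± 0.21 (SE) for mt-Rnr1 and -0.03 ± 0.21 for mt-Rnr2. mt-Tl2 had the smallest p of the mitochondrial genes (0.74 ± 0.22, adjusted p = 0.293). Without the 4 BAT libraries high in muscle genes, which leaves 2 of each treatment, the median of the mRNAs was 0.64 and 0 were called. The 74 nuclear subunits had a median of 0.25, and none passed. Summed brown adipocyte markers were 14151, 8434, 12685 and 12736 FPKM in auranofin BAT and 10525, 9385, 10089 and 6064 FPKM in vehicle BAT. Summed macrophage markers were 53.6, 134, 78.2 and 62.9 FPKM in auranofin BAT and 110.0, 228, 134 and 174 FPKM in vehicle BAT. The part of either marker list and of gene length in these values was not tested.

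**Figure D5:**
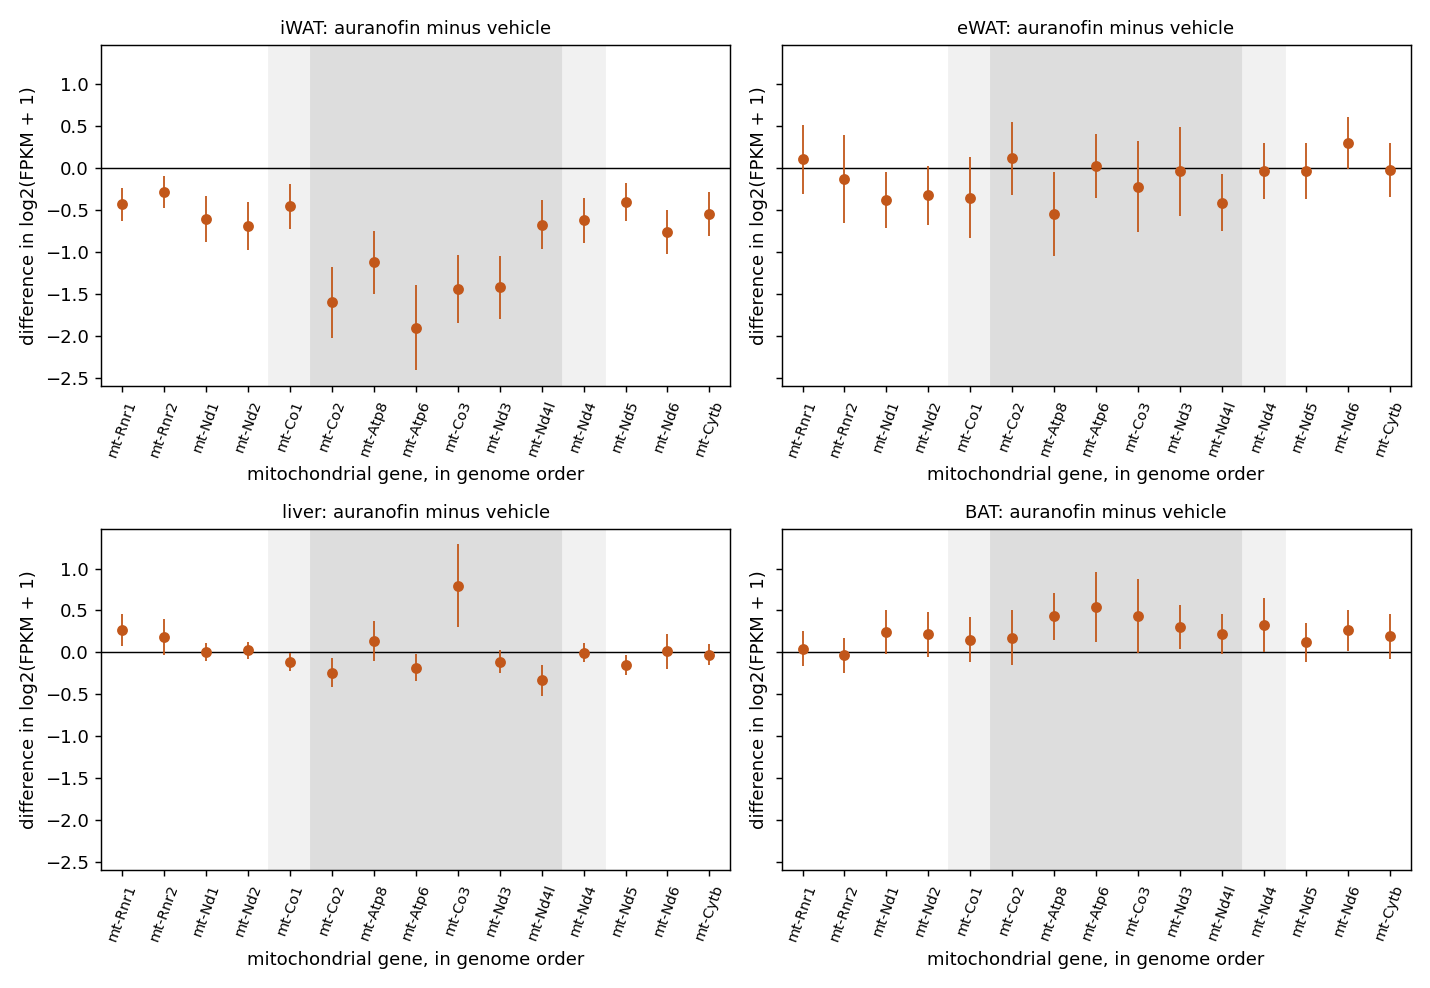
Difference in log2(FPKM + 1), auranofin minus vehicle, of the rRNAs and mRNAs in genome order in each tissue (points, bars ± SE; dark shading for genes inside the copied stretch, light for those partly inside). In iWAT all 15 points lie below 0, of which mt-Nd5 and mt-Rnr2 lay above 0 with quantile normalization; in BAT the 13 mRNAs lie above 0, or 10 of them with that scaling, and no point passed the test.

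The auranofin difference was also compared between tissues, as an interaction. None of the mitochondrial genes passed in any pair of tissues. iWAT minus BAT gave a median of -0.95 over the mRNAs, with 16 mitochondrial genes at an unadjusted p under 0.05, and mt-Nd3 (-1.72 ± 0.49 SE, adjusted p = 0.114) and mt-Atp6 (-2.45 ± 0.71, adjusted p = 0.114) had the smallest adjusted p of the mRNAs. limma called 0.0224% of all genes there. iWAT minus liver gave -0.72 (13 mitochondrial genes, 0% of all genes called) and iWAT minus eWAT -0.58 (7 and 0%). eWAT minus BAT gave -0.50 (0 and 0%), eWAT minus liver -0.03 (2 and 0%) and BAT minus liver 0.28 (2 and 0.0215%). voom called no mitochondrial gene in any of the 6 pairs. The pairs share libraries, and their values are not independent.

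For the genes that act on mtDNA, none passed with auranofin. In iWAT Lrpprc averaged 5.39 FPKM with auranofin and 7.19 FPKM with vehicle (-0.36 ± 0.12 SE, adjusted p = 0.204), Tfam 4.96 and 6.06 FPKM (-0.24 ± 0.10, adjusted p = 0.222), and Polrmt 4.38 and 4.66 FPKM (-0.07 ± 0.10, adjusted p = 0.652). Ppargc1a averaged 0.540 and 0.750 FPKM (-0.18 ± 0.12, adjusted p = 0.36). In BAT Polrmt differed by 0.20 ± 0.09 (adjusted p = 0.472) and Tfam by 0.10 ± 0.08 (adjusted p = 0.676).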

How the data were processed

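RNA sequencing values of 32 libraries from BAT, liver, iWAT and eWAT of auranofin and vehicle mice were analysed, with groups taken from the labels. The deposited table gives FPKM for 54532 genes, computed by the authors from total RNA libraries made with an unstranded kit, per the labels' protocols. The genome build mm10 is named in the submitters' processing notes, as are the tools DESeq2 1.20.0, featureCounts 1.5.0-p3, STAR 2.6.1d and CASAVA, with no role for any.

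When FPKM were multiplied by gene length, 100.0% of values came out as whole reads of a library-specific size (tolerance 0.1 read), so read numbers were rebuilt for shares, depth and the voom alternative. The library size behind the deposited FPKM, 10559760 to 24013795, was not the sum of reads in genes, 13606756 to 19205640, and differs between tissues relative to it. It also differs by treatment in iWAT. There the size per read in genes averaged 1.24 with auranofin (1.02 to 1.33) and 1.08 with vehicle (1.05 to 1.11). TPM, quantile and nuclear-read scales were tried for that reason.

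Differences were tested on log2(FPKM + 1) by limma 3.58.1 (R 4.3.3), whose variance prior followed the mean level, over genes with a mean of 0.5 FPKM or more. Auranofin was compared with vehicle within a tissue, tissues within a treatment, and auranofin differences between tissues as interactions. P-values were adjusted by the Benjamini-Hochberg method over all genes, with a threshold of 0.05. A log2(FPKM + 1) difference understates changes of low genes. Shares and ratios have no test. Simulated data with known changes were run for auranofin against vehicle in each tissue, BAT against iWAT in vehicle libraries, and iWAT minus eWAT. The other comparisons were not simulated.

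Members were matched to GENCODE M21 on GRCm38, where all 37 had the same position, and its transcripts served to find copies. All members may be named. From the nuclear lists, up to 4 called genes with the smallest p per comparison may be named, and Polrmt, Tfam, Lrpprc and Ppargc1a always; many of them are not reported here. The decision to describe the mitochondrial genes and the choice of nuclear lists were made with earlier results of these data known, though membership of the 37 follows from the chromosome alone. Replicate numbers were not used as pairs. Deviations of same-numbered libraries from their group means correlated between -0.22 and 0.40 for auranofin with vehicle, and between -0.34 and 0.28 between tissues. Python 3.11.15 with matplotlib 3.10.9 made the plots.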

Additional observations from a re-analysis of the deposited data

Results flagged for a closer look

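A library was set apart where its gap to the nearest of the other 3 libraries of its group took up most of the group's whole range, past Dixon's 95% critical value for 4 libraries. Of 176 values tested, 37 were, and chance alone gives about 1 in 20. Most fell in eWAT of vehicle mice and in iWAT. Vehicle replicate 2 of eWAT was highest in 15 values. It had 894 FPKM of mt-Rnr1, 943 FPKM of mt-Rnr2, 5873 FPKM of mt-Nd1 and 5042 FPKM of mt-Nd2. It had 23265 FPKM of mt-Co1, against 6202 to 7199.6 FPKM in the other 3, and 3282 FPKM of mt-Nd4, 1529.9 FPKM of mt-Nd6 and 1681 FPKM of mt-Tp. Of the genes inside the copied stretch it had 114 FPKM of mt-Co2, 80.8 FPKM of mt-Atp6, 127 FPKM of mt-Co3 and 69.6 FPKM of mt-Nd3. Mitochondrial mRNAs took 7.80% of its reads, rRNAs 0.287% and tRNAs 0.0166%. In eWAT of auranofin mice, replicate 1 had 79.3 FPKM of mt-Co3, against 23.2 to 31.1 FPKM in the other 3.

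Auranofin replicate 2 of iWAT was highest in 7 values: 178 FPKM of mt-Co2, 172 FPKM of mt-Atp6, 126 FPKM of mt-Co3, 123 FPKM of mt-Nd3, 4708 FPKM of mt-Nd4, 3926 FPKM of mt-Nd6 and 171 FPKM of mt-Tl2. For mt-Tl2 the other 3 auranofin libraries had 8.98 to 11.7 FPKM. In vehicle iWAT, replicate 4, with high muscle genes, was lowest in mt-Rnr2 (378 FPKM), mt-Co3 (110.8 FPKM) and the rRNA share of reads (0.121%), and highest in mt-Tl2 (152 FPKM). Vehicle replicate 1 of iWAT had 456 FPKM of mt-Atp6, against 175 to 179 FPKM in the other 3.

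In BAT, auranofin replicate 3 had 238 FPKM of mt-Nd4l, vehicle replicate 1 had 912 FPKM of mt-Atp6, and in vehicle replicate 4 mitochondrial mRNAs took 22.2% of reads, against 15.5 to 16.4% in the other 3. In liver, auranofin replicate 3 was highest in mt-Co2 (138 FPKM) and mt-Cytb (12853 FPKM), and auranofin replicate 4 in mt-Tn (128 FPKM). Vehicle replicate 4 of liver was highest in mt-Atp8 (11.7 FPKM) and vehicle replicate 2 in mt-Nd5 (1865 FPKM), and vehicle replicate 3 was lowest in mt-Cytb (10266 FPKM).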

How the results depend on the processing

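Counts of mitochondrial genes called, higher and lower together, moved by over 1.5 times in the following settings. For auranofin in iWAT, limma called 0, sample quality weights 28, 1 fit of all libraries 4, and leaving out single libraries 0 to 25, the 25 without auranofin replicate 2. Of all 13164 genes, weights called 2631 higher and 3464 lower, and 1 fit of all libraries 270 higher and 452 lower. For liver against iWAT in vehicle libraries the count was 7, with 22 on the TPM scale, 18 with quantile normalization, 18 on the nuclear-read scale and 13 with weights. For liver against eWAT in vehicle libraries it was 21, with 12 without the filter on low values, 13 on the TPM scale (5 higher, 8 lower) and 6 on the nuclear-read scale. With quantile normalization 9 were higher and 11 lower. For liver against eWAT in auranofin libraries 17 were higher and 0 lower, with 12 and 7 on the TPM scale and 11 and 9 with quantile normalization. For eWAT against iWAT in vehicle libraries it was 22, and 14 without the filter. For liver against iWAT in auranofin libraries it was 12 (11 higher, 1 lower; on the TPM scale 0 and 12), with 5 without the filter, 6 on the nuclear-read scale, 21 with weights and 2 to 19 without single libraries (2 without liver auranofin replicate 1, 19 without iWAT auranofin replicate 2). For eWAT against iWAT in auranofin libraries it was 0, with 1 on the TPM scale, 4 with quantile normalization, 12 with weights and 0 to 1 without single libraries. The interactions called 0. With weights they called 14 for iWAT minus eWAT, 21 for iWAT minus BAT and 20 for iWAT minus liver, and without single libraries 0 to 7, 0 to 18 and 0 to 18, the highest without iWAT auranofin replicate 2. How many of all genes the weighted interactions called is not given here. Per nuclear protein-coding reads, the median mitochondrial share became 25.7% in auranofin BAT, 21.3% in vehicle BAT, 4.74% in auranofin liver and 7.19% in vehicle iWAT. The cause of these shifts was not tested.

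Of 110 results on single genes, 7 changed sign under some of their alternatives. With auranofin in iWAT, quantile normalization gave 0.18 for mt-Rnr2 and 0.12 for mt-Nd5, and removal of the length trend 0.10 for mt-Nd4l. In eWAT, mt-Co1 ran from -0.53 to 0.10 without single libraries, the highest without vehicle replicate 2, and stood at 0.0562 without vehicle replicates 1 and 2. mt-Nd6 in eWAT was -0.0300 with quantile normalization and -0.0593 with the length trend removed. For vehicle liver against eWAT, mt-Nd2 was -0.91 with quantile normalization, and mt-Cytb was -0.0106 on the TPM scale and -1.06 with quantile normalization. In all, 1812 of 1935 single-gene alternatives kept direction and call, 46 gained a call, 67 lost one and 10 changed sign. With a replicate block the auranofin comparisons called 0 mitochondrial genes in each tissue, as without it. The labels do not state whether the replicate numbers pair the libraries. Depth makes the values of the 7 tRNA genes with under 100 reads in all libraries together imprecise. The same holds outside BAT for tRNA genes with few reads there, such as mt-Ti and mt-Tm.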

Other observations

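Lists of nuclear genes not described above moved as follows. Of 17 genes for replication and maintenance of mtDNA, 6 were higher and 1 lower in vehicle BAT than in vehicle iWAT (24.4% of all genes were higher), and 5 higher and 6 lower than in vehicle liver (31.8% higher). In vehicle liver 10 of them were higher and 4 lower than in vehicle iWAT (35.8% of all genes higher, 33.7% lower). Twnk, the helicase that unwinds mtDNA, was higher in vehicle liver than in vehicle iWAT by 1.76 on the log2 scale, and Dna2, a nuclease with a part in mtDNA repair, by 1.81. Of 11 regulators of mitochondrial biogenesis, 10 were higher in vehicle BAT than in vehicle iWAT and none lower, beside the same 24.4%, with Ppara at 3.74 and Ppargc1b at 3.05 on the log2 scale. With auranofin, no gene of these lists passed in any tissue. In iWAT the genes for mtDNA transcription and RNA processing had a median difference of -0.15, with 41 of 47 below 0, and those for mitochondrial translation one of -0.09, with 22 of 32 below 0.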
